A study of Mus musculus with 12 samples.

Results

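Messenger RNA levels in ISOS-1 cells, a mouse angiosarcoma line, were compared between cells given SAHA and cells given JQ1. SAHA, also called vorinostat, inhibits zinc-dependent histone deacetylases (HDACs), and JQ1 inhibits the bromodomains of the BET proteins. The comparison used every gene that reached 1 TPM in 3 or more of the libraries, or 12836 of 55359 identifiers. It set 3 libraries of cells given SAHA at 1 µM for 24 h against 3 of cells given JQ1 at 1 µM for 36 h, that is, 6 of the 12 libraries of the series. The other 6 libraries, from cells given DMSO, for which the labels state no duration, and cells given VPA (valproic acid, a second HDAC inhibitor) at 2 mM for 36 h, share the fitted spread and are given beside the results. All cells grew in DMEM with 10% serum. Because SAHA and JQ1 were given for different times, drug and exposure time cannot be told apart between these groups, and VPA against JQ1 is given as the comparison at a matched 36 h. Each agent was used at 1 dose, 1 cell line was used, and the labels do not say whether the 3 libraries of a group came from separate cultures, so the error behind each p-value is the spread among these libraries alone and may be technical.

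Histone acetylation is written by acetyltransferases, erased by HDACs and read by bromodomain proteins. HDAC inhibitors raise acetylation on histones and other proteins, and are known to raise the cell cycle inhibitor Cdkn1a in many cell types. BET proteins bind acetylated histones and bring the kinase complex P-TEFb to promoters, where it releases paused RNA polymerase II. JQ1 displaces BET proteins from chromatin, and a rise of Hexim1, an inhibitor of P-TEFb, is widely used as a sign of that action.

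Libraries were made from messenger RNA 3′ ends and the values are deposited TPM, a relative transcript abundance whose total is fixed for each library and from which read depth cannot be read. The number of identifiers above 0 was 14102 ± 403 with SAHA and 14508 ± 327 with JQ1 (SD, n = 3). Pearson correlations of log2(TPM + 1) were 0.937 to 0.946 between SAHA libraries, 0.941 to 0.946 between JQ1 libraries and 0.886 to 0.898 between a SAHA and a JQ1 library. The JQ1 libraries gave a larger share of their TPM to few genes, with 56.6% ± 0.162 in the 100 most abundant genes against 51.0% ± 0.477 with SAHA. Mitochondrially encoded RNA took 14.6% ± 0.526 with JQ1 and 11.3% ± 0.340 with SAHA, and Rn18s took 8.86% ± 0.655 and 9.78% ± 1.22. The labels call the cells endothelial, but of 11 blood endothelial markers, Cdh5, Vwf, Erg and Cldn5 were listed at 0 in all 12 libraries, and only Cd34 and Pecam1 reached 1 TPM in a SAHA or JQ1 library.

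Of the 12836 genes tested, 4270 (33.3%) differed between SAHA and JQ1 at a limma adjusted p under 0.05, which is what called means here. Of these, 2737 (21.3% of genes tested) were higher with SAHA and 1533 (11.9%) were higher with JQ1, so 64.1% of the calls were on the SAHA side. That balance rests on the scaling. After median-of-ratios scaling the calls split 2274 to 2015 (53.02% on the SAHA side), and after quantile normalization 2214 to 2059 (51.8%), because these scalings shift the median difference over all genes, 0.09 as deposited, by -0.10 and -0.11 on the log2 scale. Among the calls, 1272 genes were at least 2-fold higher with SAHA and 679 at least 2-fold higher with JQ1. The libraries of the 2 groups did not overlap for 5722 genes (44.6%). At the matched 36 h, VPA against JQ1 gave 4264 calls (33.2%), 2945 higher with VPA and 1319 higher with JQ1. Against DMSO, SAHA gave 666 calls (5.19%) and JQ1 4347 (33.9%). These comparisons share libraries, so their counts are not independent of each other. Between SAHA and VPA, which differ in agent, dose and time, 34 genes were higher with SAHA and 24 higher with VPA.

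**Figure D1:**
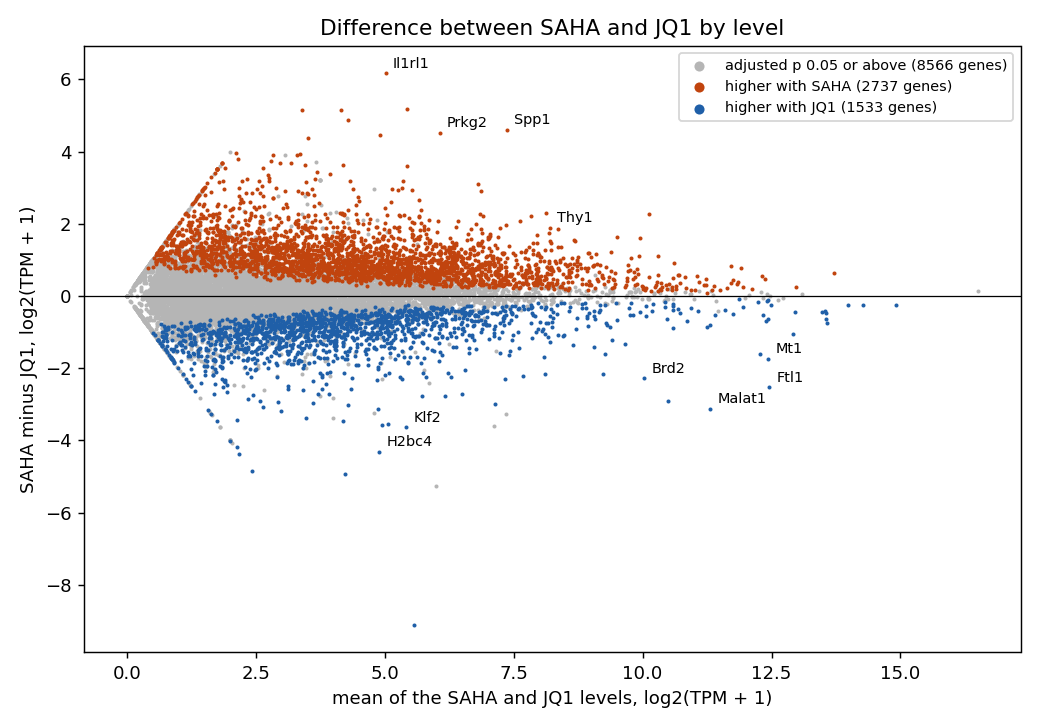
Each point is 1 of the 12836 genes, placed by its mean level over SAHA and JQ1 libraries (horizontal axis, log2(TPM + 1)) and by SAHA minus JQ1 (vertical axis, log2(TPM + 1)). Orange points are the 2737 genes higher with SAHA, blue points the 1533 higher with JQ1 and grey points the genes that were not called, and the fan of points at low levels comes from genes near 0 in one of the groups.

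The share of called genes grew with level. Genes were ranked by their mean TPM in the DMSO and VPA libraries and cut into 5 classes of equal size. Of the lowest class 12.3% were called and of the highest 60.1%, with 45.8% higher with SAHA and 14.3% higher with JQ1. This ranking is not neutral, because it leaves out the JQ1 libraries. Genes lowered by JQ1 are ranked at their unlowered level, which can partly set the split by direction. The lowest class starts at a mean of 0 TPM, so it holds genes that passed the filter only through SAHA or JQ1 libraries. Protein-coding genes were called in 37.3% of 10583 cases. Long noncoding genes were called in 18.1% of 817 cases. Here the balance was the other way, with 57 (6.98%) higher with SAHA and 91 (11.1%) higher with JQ1. The JQ1 share was near the 11.9% of all genes, and the SAHA share was below their 21.3%. The lowest class by level leaned the same way, at 4.44% and 7.90%, and level and gene type were not told apart.

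The genes of the drug targets and their partners came first. Hexim1 stood at 6.89, 8.4 and 10.1 TPM in the 3 SAHA libraries and at 42.99, 43.1 and 46.7 TPM in the 3 JQ1 libraries, beside 11.4 ± 1.98 TPM with DMSO and 11.3 ± 0.969 with VPA (SD, n = 3, here and for every DMSO and VPA level that follows). The groups did not overlap, and Hexim1 was higher with JQ1 (difference -2.27, SE 0.16, adjusted p = 1.51e-06, all differences being SAHA minus JQ1 on the log2(TPM + 1) scale, with a pseudocount that shrinks the differences of low genes). Brd2, a BET protein that JQ1 itself binds, had 458, 479 and 488 TPM with SAHA and 2293, 2492 and 2180 TPM with JQ1 (DMSO 645 ± 13.7, VPA 561 ± 3.99). Every JQ1 library was above every SAHA library (difference -2.28, SE 0.05, adjusted p = 2.44e-10). Brd3, of the same family, gave overlapping groups (difference -0.08, SE 0.14, adjusted p = 0.71). Larp7, which holds P-TEFb in its inactive complex together with Hexim1, was on the other side, at 197, 195 and 179 TPM with SAHA and 116, 109 and 109.9 with JQ1 (difference 0.77, SE 0.06, adjusted p = 3.8e-06). Of 14 tested members of the BET and P-TEFb list, 5 were called higher with JQ1 and 2 higher with SAHA. Of these 2, Cdk9, the kinase of P-TEFb, had a small difference (difference 0.30, SE 0.09, adjusted p = 0.024) that lost its call in 8 of 23 alternatives (highest adjusted p 0.266). In the list of genes known to respond to BET inhibitors, 2 of 9 tested members were higher with SAHA and 3 higher with JQ1. The median of that list was 0.08, so it had no clear direction.

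Among the HDAC genes themselves, 10 were tested, with 2 called in each direction. Hdac2, a class I enzyme that SAHA inhibits, stood at 82.7, 99.5 and 95.4 TPM with SAHA and 40.4, 39.1 and 42.05 TPM with JQ1 (difference 1.17, SE 0.15, adjusted p = 0.0001). Its DMSO level was 82.7 ± 17.5 TPM, so the SAHA libraries lay near vehicle and the JQ1 libraries below it. Hdac5, a class II enzyme, had 60.1, 61.8 and 64.01 TPM with SAHA and 109, 111 and 127 TPM with JQ1, with DMSO at 66.5 ± 6.71 (difference -0.89, SE 0.11, adjusted p = 0.000117). Hdac1 was less firm (difference 0.32, SE 0.09, adjusted p = 0.0184), losing its call in 5 of 23 alternatives with adjusted p up to 0.394, and Hdac4 lost its call in 13 of 22 (adjusted p up to 0.131). Hdac3 gave 4.59, 5.85 and 5.17 TPM with SAHA and 5.79, 5.09 and 5.29 with JQ1 (difference -0.05, SE 0.17, adjusted p = 0.864).

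The list of genes known to respond to HDAC inhibitors was mostly higher with JQ1, the BET inhibitor, with 9 of 16 tested members called on that side and 2 on the SAHA side (median -0.66, against 0.09 over all genes). Cdkn1a, which encodes the cell cycle inhibitor p21, was 1 of the 2 exceptions. It had 47.5, 59.7 and 50.9 TPM in the SAHA libraries and 16.7, 13.6 and 20.1 TPM in the JQ1 libraries, on either side of DMSO at 23.5 ± 2.49 TPM, and VPA at 51.8 ± 3.78 TPM was beside SAHA. The difference was 1.60 (SE 0.15, adjusted p = 1e-05), made of 1.13 for SAHA minus DMSO (adjusted p = 0.00146) and -0.47 for JQ1 minus DMSO (adjusted p = 0.0293). Mt2, a metallothionein that binds zinc and copper, was above DMSO with both drugs. Its TPM was 2939.9, 2857 and 2741 with SAHA and 8318, 8657 and 9005 with JQ1, with DMSO at 1308 ± 62.9 (difference -1.60, SE 0.04, adjusted p = 8.01e-10). Mt1 followed with 3102, 3006 and 2999 TPM with SAHA and 9933, 10387 and 10144 with JQ1 (difference -1.74, SE 0.04, adjusted p = 2.94e-10). Txnip, an inhibitor of thioredoxin, had 22.8, 19.7 and 16.4 TPM with SAHA and 54.6, 40.1 and 40.1 TPM with JQ1 over a DMSO level of 4.25 ± 3.3 TPM, and did not pass the test between the drugs although their libraries did not overlap (difference -1.15, SE 0.49, adjusted p = 0.0961).

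**Figure D2:**
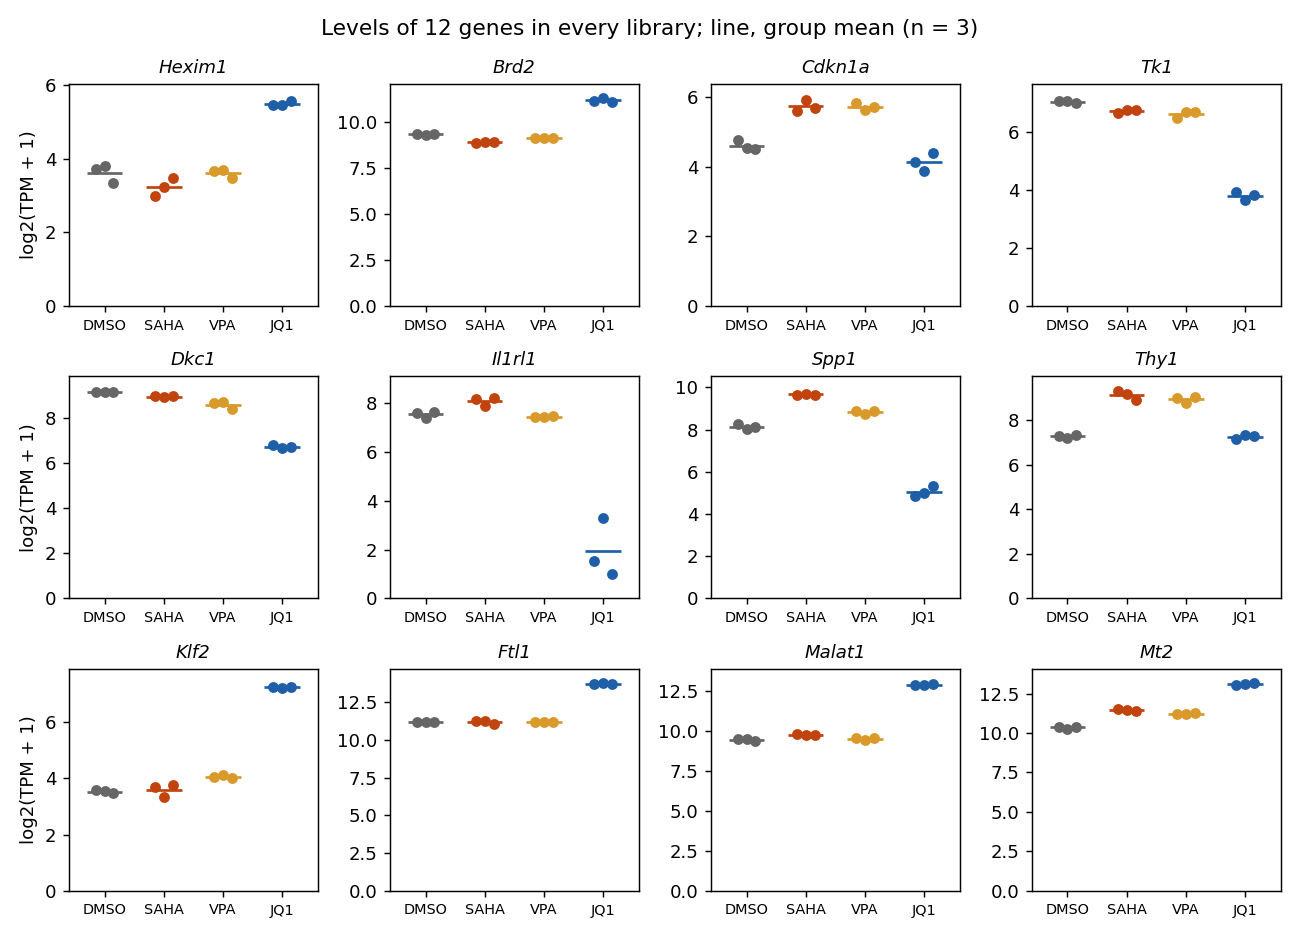
Levels of 12 genes as log2(TPM + 1) on the vertical axis, with 1 point for each library of DMSO, SAHA, VPA and JQ1 and a line at the mean of each group of 3. SAHA and VPA points lie close together in most panels, and the JQ1 points stand apart from them in all 12. The 12 genes were picked and do not stand for all genes, and Myc, Brd3 and Hdac3, which were not called, are not among them.

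Genes of cell division were higher with SAHA almost throughout. Of 43 mitosis genes tested, 39 were higher with SAHA and 0 higher with JQ1 (median difference 1.38), and of 41 DNA replication genes 35 were higher with SAHA and 0 higher with JQ1 (median 1.37). Over all genes tested the shares were 21.3% and 11.9%, and these stand as the background for every list, without matching for level. In the highest class by level the shares were 45.8% and 14.3%, so lists of abundant genes have a higher background. The ranking behind that class can partly set its split by direction, as given above. In bulk RNA, fewer cells that express a gene and less of its RNA per cell cannot be told apart, here and in every list. The summed level of the mitosis genes was 3136, 3129 and 3195 TPM in the SAHA libraries and 1141, 1152 and 1148 TPM in the JQ1 libraries, and every JQ1 sum was below every SAHA sum. Medians from DMSO were -0.20 with SAHA and -1.47 with JQ1 for mitosis, and -0.12 and -1.40 for replication. At the matched time VPA minus JQ1 gave medians of 1.48 and 1.49.

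The promoters of both lists were searched for a short sequence that the choice of list members did not use. The letters CCAAT, bound by the factor NF-Y, were searched on both strands from 250 bases before to 50 bases after each annotated start (RefSeq, GRCm38.p6, a build other than the mm39 of the submitters' processing notes), for the 8508 of 10570 tested protein-coding genes that matched this table. They were present in 76.3% of 38 mitosis promoters, 63.6% of 33 replication promoters and 40.1% of all 8508. The genes higher with SAHA as a whole held them in 40.8% of promoters and those higher with JQ1 in 41.1%, so the share was near the general one in both directions. The E2F site, searched as TTTGGCGC on both strands, was in 15.2% of replication promoters and 1.07% of all. The 3 windows below were picked from called mitosis genes because they hold it, and the capitals mark CCAAT or its reverse complement ATTGG.
Ube2c: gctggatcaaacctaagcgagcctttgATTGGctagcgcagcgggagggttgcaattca
Cdca8: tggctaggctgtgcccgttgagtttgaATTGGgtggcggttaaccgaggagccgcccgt
Bub1b: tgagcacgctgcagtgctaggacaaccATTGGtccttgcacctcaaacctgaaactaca
The Ube2c window is chr2:164769845-164769903 (plus strand), with its capitals 57 bases before the start, and its promoter held 6 matches in all. The Cdca8 window is chr4:124936868-124936926 (minus strand), with its capitals after the start, and the Bub1b window is chr2:118598071-118598129 (plus strand).

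Ube2c, the ubiquitin-conjugating enzyme of the anaphase-promoting complex, had 269, 232 and 265 TPM with SAHA and 51.97, 55.3 and 47.6 TPM with JQ1 (difference 2.28, SE 0.08, adjusted p = 4.16e-09). Cdca8, a subunit of the chromosomal passenger complex, had 85.8, 74.4 and 89.6 TPM with SAHA and 11.7, 16.9 and 23.7 with JQ1 (difference 2.24, SE 0.19, adjusted p = 6.38e-06). Both genes had higher DMSO levels than JQ1 levels, at 263 ± 13.6 and 112 ± 13.1 TPM. Bub1b, a spindle checkpoint kinase, gave 15.7, 17.7 and 24.6 TPM with SAHA and 6.79, 4.92 and 1.74 with JQ1 (difference 1.997, SE 0.33, adjusted p = 0.000698), and Birc5 (survivin), a partner of Cdca8, gave 303, 278 and 283 and 78.9, 79.3 and 73.2 TPM (difference 1.89, SE 0.06, adjusted p = 1.79e-09). The largest replication difference was that of Tk1, thymidine kinase of the S phase, at 101, 107 and 107 TPM with SAHA, 14.1, 11.6 and 13.4 with JQ1 and 131 ± 3.75 with DMSO (difference 2.92, SE 0.09, adjusted p = 2.32e-09). Ccne1 (cyclin E1), which starts S phase with Cdk2, stood at 28.5, 24.04 and 26.2 TPM with SAHA and 4.06, 2.83 and 8.64 with JQ1 (difference 2.25, SE 0.28, adjusted p = 0.000103). The proliferation marker Mki67 was also higher with SAHA, at 15.8, 15.1 and 13.5 against 7.28, 7.08 and 7.18 TPM (difference 0.95, SE 0.11, adjusted p = 7.59e-05). Its SAHA level lay under DMSO at 20.1 ± 1.12 TPM, but SAHA minus DMSO was not called (-0.42, limma adjusted p = 0.0614).

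Genes that act in G1 were called in both directions. Of 15 tested CDK inhibitors and G1 cyclins, 7 were higher with SAHA and 2 higher with JQ1. Ccnd1 (cyclin D1) had 221, 228 and 223 TPM with SAHA and 75.2, 79.3 and 66.96 TPM with JQ1, with DMSO between them at 138 ± 6.2 TPM (difference 1.59, SE 0.07, adjusted p = 3.45e-08). Its kinase Cdk6 had 15.7, 17.5 and 17.1 TPM with SAHA and 3.84, 4.83 and 5.35 with JQ1 (difference 1.65, SE 0.14, adjusted p = 6.15e-06), and here SAHA was at the DMSO level of 16.8 ± 0.388 TPM. The 2 members higher with JQ1 were the CDK inhibitors Cdkn2b (difference -0.89, SE 0.15, adjusted p = 0.000711) and Cdkn1b (difference -0.60, SE 0.14, adjusted p = 0.00535), while the inhibitor Cdkn1a, as given above, was higher with SAHA.

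Biosynthesis genes were the next group on the SAHA side. Of 32 nucleolar ribosome biogenesis genes, 28 were higher with SAHA and 0 higher with JQ1 (median 0.98), and of 25 tested targets of MYC and MYC itself, 19 were higher with SAHA and 1 with JQ1 (median 0.74). Dkc1, the pseudouridine synthase of small nucleolar ribonucleoproteins, had 494, 475 and 494 TPM with SAHA and 111, 98.7 and 104 TPM with JQ1 (difference 2.21, SE 0.08, adjusted p = 4.64e-09). Rrp9, which binds the U3 small nucleolar RNA, had 108, 107 and 80.4 TPM with SAHA and 32.5, 32.7 and 29.1 with JQ1 (difference 1.60, SE 0.12, adjusted p = 2.61e-06). Every SAHA library was above every JQ1 library for both genes. Pa2g4 and Ranbp1, growth-linked and nuclear transport genes, gave differences of 1.85 (SE 0.10, adjusted p = 2.3e-07) and 1.74 (SE 0.07, adjusted p = 8.14e-09). Myc itself, often lowered by BET inhibitors in blood cancers, was at 22.6, 25.2 and 23.2 TPM with SAHA, 20.7, 18.9 and 22.4 TPM with JQ1 and 21.5 ± 1.22 TPM with DMSO, and did not pass the test (difference 0.19, SE 0.13, adjusted p = 0.304). Mxd4, which competes with MYC for its partner MAX, was the list member higher with JQ1, at 108, 103 and 82.7 against 26.8, 24.7 and 27.5 TPM (difference -1.85, SE 0.15, adjusted p = 2.87e-06).

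Machinery for making and degrading proteins followed with smaller differences. Mitochondrial ribosomal proteins were higher with SAHA in 42 of 78 and higher with JQ1 in 1 (median 0.57), proteasome subunits in 25 of 34 and 1 (median 0.46), and chaperones in 19 of 30 and 4 (median 0.57). In either direction 55.1%, 76.5% and 76.7% of these lists were called. Over all genes 33.3% were called, and in the highest class by level 60.1%. Mrpl13, of the large mitochondrial subunit, had 221, 236 and 229 TPM with SAHA and 93.2, 79.8 and 81.2 with JQ1 (difference 1.42, SE 0.07, adjusted p = 1.39e-07). Psme3, an activator of the proteasome, had 44.5, 52.6 and 56.1 TPM with SAHA and 25.7, 16.96 and 20.9 with JQ1 (difference 1.24, SE 0.16, adjusted p = 0.000121). The groups did not overlap in either gene. Among chaperones, the mitochondrial Hspd1 was higher with SAHA (difference 1.07, SE 0.06, adjusted p = 1.77e-07), and the small heat shock protein Cryab was higher with JQ1, at 141, 95.3 and 139.7 against 28.2, 44.6 and 32.3 TPM (difference -1.81, SE 0.26, adjusted p = 0.000276). For the proteasome the count on the SAHA side fell to 17 after median-of-ratios scaling and to 14 after quantile normalization. Cytosolic ribosomal proteins, whose reads can be shared with near-identical pseudogenes, were called in 44 of 84 on the SAHA side and 12 on the JQ1 side. That is 66.7% in either direction, near the 60.1% of the highest class by level, where 45.8% were higher with SAHA and 14.3% with JQ1. Quantile normalization gave 46 and 14, but median-of-ratios scaling gave 26 and 25, so their direction depends on which scaling is used.

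**Figure D3:**
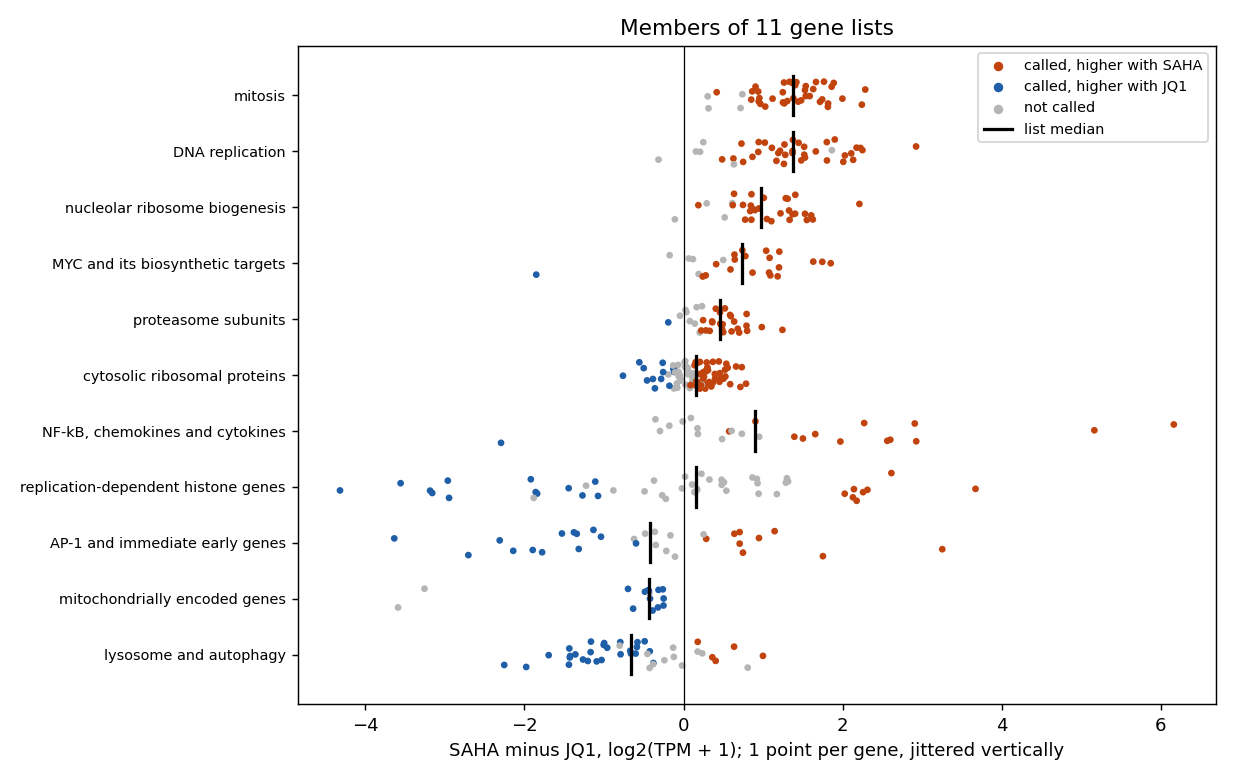
SAHA minus JQ1 for each tested member of 11 gene lists (horizontal axis, log2(TPM + 1)), coloured by call, with a black bar at the list median. Mitosis, replication and nucleolar genes lie almost wholly to the right of 0, lysosome genes mostly to the left, and histone genes spread to both sides from -4.32 to 3.67.

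Genes named for the size of their difference follow, first those on the SAHA side. Il1rl1, the receptor for interleukin 33, had 289, 234 and 302 TPM with SAHA and 1.91, 8.76 and 0.98 TPM with JQ1 (difference 6.16, SE 0.43, adjusted p = 1.19e-06). The second JQ1 library stood above the other two, and without it the difference was 6.84. DMSO at 187 ± 15.5 TPM and VPA at 175 ± 4.46 TPM were nearer to SAHA than to JQ1. Il1rl1 is described here together with Il33, its ligand, which was also higher with SAHA (difference 1.97, SE 0.34, adjusted p = 0.00105). Spp1 (osteopontin), a matrix protein that binds integrins and CD44, had 802, 826 and 806 TPM with SAHA and 27.6, 30.9 and 39.5 TPM with JQ1, a 24.8-fold ratio of mean TPM (difference 4.61, SE 0.11, adjusted p = 3.35e-10). Spp1 moved from DMSO in opposite directions, at 281 ± 25.2 TPM with DMSO, by 1.53 with SAHA (adjusted p = 3.14e-05) and by -3.08 with JQ1 (adjusted p = 6.3e-09).

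A pair of secreted antagonists of the TGF-beta family had the same arrangement. Grem1, which binds BMPs, had 267, 261 and 247 TPM with SAHA, 4.6, 7.06 and 7.04 TPM with JQ1 and 114 ± 3.01 TPM with DMSO (difference 5.18, SE 0.12, adjusted p = 3.35e-10). Fst (follistatin), which binds activins, had 113, 93.3 and 109.7 TPM with SAHA, 1.89, 0.71 and 4.46 TPM with JQ1 and 30.01 ± 2.08 TPM with DMSO (difference 5.14, SE 0.32, adjusted p = 4.59e-07). For both, all SAHA libraries lay above all DMSO libraries and all JQ1 libraries below them. Id1, Id2 and Id3, which encode inhibitors of basic helix-loop-helix factors and are known targets of BMP signalling, were on the JQ1 side. Id2 had 7.03, 8.66 and 8 TPM with SAHA and 96.8, 101 and 119 TPM with JQ1 (difference -3.58, SE 0.19, adjusted p = 1.41e-07), Id3 49.6, 46.6 and 52.5 and 393, 416 and 384 TPM (difference -2.98, SE 0.14, adjusted p = 6.25e-08), and Id1 90.2, 84.8 and 109 and 448, 455 and 422 TPM (difference -2.22, SE 0.09, adjusted p = 1.65e-08). The whole TGF-beta and BMP list, which holds these 5 genes, had as many calls on one side as on the other. Of 30 members tested, 5 were higher with SAHA and 5 higher with JQ1, and the 33.3% called in all is the share called over all genes.

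Prkg2, a membrane-bound kinase activated by cyclic GMP, had 329, 325 and 306 TPM with SAHA and 16.6, 10.2 and 12.8 TPM with JQ1 (difference 4.52, SE 0.13, adjusted p = 1.36e-09). Crabp1, which binds retinoic acid in the cytoplasm, had 159.8, 121 and 143 TPM with SAHA and 3.73, 7.09 and 6 TPM with JQ1 (difference 4.46, SE 0.17, adjusted p = 9.34e-09). The DMSO libraries had 230.3, 227 and 205 TPM of Prkg2, below every SAHA library, and 135, 131 and 128 TPM of Crabp1, in the range of SAHA. Ramp3, which modifies the receptor for adrenomedullin, had 37.5, 36.3 and 43.3 TPM with SAHA, 1.41, 1.91 and 1.62 with JQ1 and 15.4 ± 2.01 with DMSO (difference 3.92, SE 0.17, adjusted p = 2.91e-08). Igf1, a growth factor, had 20.7, 13.9 and 14.7 TPM with SAHA and 0.32, 0 and 0 TPM with JQ1, and because JQ1 libraries were listed at 0, no fold is given. Apln (apelin), a ligand of endothelial cells, had 13.3, 11.2 and 16.3 TPM with SAHA and 1.24, 0.96 and 0.81 with JQ1 (difference 2.86, SE 0.17, adjusted p = 3.94e-07), and Vegfd had 7.07, 6.03 and 5.69 and 0.27, 0.75 and 0.95 TPM (difference 2.15, SE 0.21, adjusted p = 1.64e-05). Among 19 tested angiogenic ligands and receptors, 7 were higher with SAHA and 2 higher with JQ1.

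A few genes were higher with SAHA and VPA than with either DMSO or JQ1. Gap43, a growth cone protein of neurons, had 102, 108 and 105 TPM with SAHA, 1.21, 4.02 and 3.24 TPM with JQ1, 25.9 ± 3.46 TPM with DMSO and 122 ± 9.96 TPM with VPA (difference 4.88, SE 0.24, adjusted p = 9.1e-08). Vip, a neuropeptide, had 62.2, 62.6 and 64.8 TPM with SAHA and 5.97, 3.04 and 3.86 with JQ1 (difference 3.64, SE 0.27, adjusted p = 2.14e-06). Vip was near its DMSO level of 4.06 ± 1.79 TPM with JQ1, and with VPA it reached 58.9 ± 7.49 TPM. Hba-a2, an alpha globin whose reads can be split with its near-identical copy Hba-a1, was at 14.7, 16.8 and 15.6 TPM with SAHA and 0, 0 and 0.74 with JQ1. It was at 0, 1.51 and 1.25 TPM with DMSO and 18.6, 7.82 and 7.49 with VPA, and no fold is given. Gchfr, which regulates the first enzyme of tetrahydrobiopterin synthesis, was at 102, 122 and 118 TPM with SAHA and 20.9, 7.76 and 14.2 with JQ1 (difference 3.002, SE 0.28, adjusted p = 9.49e-06). Of 15 neuronal genes tested, 7 were higher with SAHA and 0 higher with JQ1.

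Chemokines and their regulators leaned to SAHA, with 13 of 25 tested members called on that side and 1 on the JQ1 side (median 0.90). Ccl2, which attracts monocytes, had 119, 137 and 126 TPM with SAHA, 15.4, 16.97 and 15.2 TPM with JQ1 and 53.3 ± 7.01 TPM with DMSO (difference 2.92, SE 0.13, adjusted p = 2.91e-08). Cxcl5, which attracts neutrophils, had 69.1, 59.9 and 56.9 TPM with SAHA and 0.61, 0.82 and 0.83 TPM with JQ1 (difference 5.16, SE 0.13, adjusted p = 3.35e-10), and Cxcl1, of the same class, 29.2, 22.3 and 28.1 and 1.24, 3.78 and 3.55 TPM (difference 2.91, SE 0.28, adjusted p = 1.3e-05). In all 3 genes DMSO was between the drugs, with 30.5 ± 2.9 TPM for Cxcl5 and 13.1 ± 1.14 TPM for Cxcl1. The member higher with JQ1 was Nfkbia, which encodes the inhibitor that holds NF-kB in the cytoplasm, at 357, 346 and 364 TPM against 66.2, 70.4 and 79.2 with SAHA (difference -2.29, SE 0.10, adjusted p = 3.62e-08). The subunits Rela (-0.18, adjusted p = 0.483) and Nfkb1 (0.18, adjusted p = 0.567) did not pass the test. Interferon-stimulated genes were higher with SAHA in 5 of 14 and higher with JQ1 in 1, led by Ifitm3, which blocks virus entry, at 402, 408 and 402 against 90.8, 94.1 and 99.2 TPM (difference 2.08, SE 0.06, adjusted p = 1.91e-09). In antigen presentation, 3 of 11 tested members were higher with SAHA and 3 higher with JQ1 (median -0.08), which turned to 2 and 5 after median-of-ratios scaling. Of these, Psmb10, a subunit of the immunoproteasome, was higher with SAHA at 62.7, 68.9 and 42.5 against 6.48, 4.61 and 8.88 TPM (difference 2.96, SE 0.22, adjusted p = 2.24e-06), with DMSO above both at 113 ± 13.1 TPM.

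Matrix genes were divided between the drugs. Of 46 tested collagens and matrix proteins, 22 were higher with SAHA and 9 higher with JQ1 (median 0.60). Col3a1, a fibrillar collagen, had 31.4, 30.1 and 26.9 TPM with SAHA and 2.96, 2.95 and 3.99 TPM with JQ1 (difference 2.83, SE 0.13, adjusted p = 5.56e-08). Postn (periostin) had 5.13, 5.94 and 9.19 TPM with SAHA and was listed at 0 in all JQ1 libraries, and Tnc (tenascin C) was higher with SAHA (difference 1.36, SE 0.18, adjusted p = 0.000131). Col1a1, the main chain of collagen I, did not differ beyond its spread, at 139, 139 and 149.8 TPM with SAHA and 132, 135 and 139 with JQ1 (difference 0.08, SE 0.07, adjusted p = 0.438). On the JQ1 side stood genes of basement membrane, Col4a1 (difference -1.004, SE 0.15, adjusted p = 0.000394) and Lamb2 (difference -1.16, SE 0.18, adjusted p = 0.00048), and the insulin-like growth factor binding protein Igfbp7 (difference -1.47, SE 0.16, adjusted p = 3.4e-05).

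Tissue inhibitors of metalloproteinases, which block matrix proteases, went to both sides. Timp1 had 111, 115 and 90.8 TPM with SAHA and 22.2, 28.2 and 29.6 TPM with JQ1 (difference 1.95, SE 0.12, adjusted p = 4.58e-07). Timp2 had 145, 144 and 163 TPM with SAHA and 520.4, 493 and 458 TPM with JQ1 (difference -1.70, SE 0.08, adjusted p = 9.08e-08), and Timp3 24.4, 27.4 and 27.9 and 85.8, 92.5 and 85.7 TPM (difference -1.69, SE 0.17, adjusted p = 1.56e-05). None of these groups overlapped, and DMSO stood at 96.1 ± 6, 124 ± 6.08 and 28.01 ± 5.06 TPM in that order.

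Fibroblast markers, of which Mfap5 is also on the matrix list, were mostly higher with SAHA. Of 6 markers 5 were tested and 4 were higher with SAHA. Of these 4, Dcn had 2.49, 2.08 and 4.89 TPM with SAHA and 0, 0 and 0.37 with JQ1. Dcn passed the filter only through SAHA and VPA libraries, so it could not be called on the JQ1 side. The summed level of the 6 markers was 649 to 812 TPM with SAHA and 277 to 302 TPM with JQ1, with 307 to 311 TPM with DMSO. Lum was listed at 0 in 5 of the 6 libraries, and Col1a1, given above, was not called. Thy1, a surface glycoprotein of fibroblasts and other cells, made up most of that sum, at 635, 589 and 477 TPM with SAHA, 141, 161 and 154 with JQ1 and 154 ± 7.2 with DMSO (difference 1.89, SE 0.11, adjusted p = 2.42e-07). Pdgfra, a growth factor receptor, had 5.49, 4.25 and 4.01 TPM with SAHA and 0.17, 0 and 0.1 TPM with JQ1. The part of the fibroblast markers in the matrix differences was not tested. Cd34, the sole tested blood endothelial marker, was 204, 185 and 192 TPM with SAHA and 51.8, 52.6 and 52.9 with JQ1 (difference 1.87, SE 0.10, adjusted p = 1.54e-07), and Pdpn, also known from lymphatic endothelium, 122, 107 and 118 and 45.8, 49.1 and 45.8 TPM (difference 1.28, SE 0.08, adjusted p = 3.85e-07). Summed leukocyte markers were at most 2.74 TPM, and pericyte and smooth muscle markers at most 1.79 TPM, in any of the 6 libraries. Summed epithelial markers were 21.9 to 25.4 TPM with SAHA, 30.4 to 40.3 TPM with JQ1 and 10.8 to 12.9 TPM with DMSO, nearly all of it the keratin gene Krt19 (difference -0.50, SE 0.16, adjusted p = 0.0319), which lost its call in 6 of 23 alternatives (adjusted p up to 0.12), and Epcam and Cdh1 were at 0 in all 6 libraries.

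Transcription factors of the immediate early class were also divided. Of 30 tested AP-1 and immediate early genes, 9 were higher with SAHA and 13 higher with JQ1 (median -0.42). Klf2, a shear-responsive factor of endothelial cells, had 11.8, 9.09 and 12.7 TPM with SAHA, 152, 146 and 149.9 TPM with JQ1 and 10.5 ± 0.441 TPM with DMSO (difference -3.64, SE 0.12, adjusted p = 4.02e-09). Dusp1, a phosphatase of MAP kinases, had 15.9, 18.1 and 17.3 TPM with SAHA and 91.8, 81.2 and 93.5 TPM with JQ1 (difference -2.31, SE 0.11, adjusted p = 6.25e-08), and Ccn1, a matrix protein induced by growth factors and by YAP, 34.5, 34.2 and 35.04 and 238, 220.2 and 235 TPM (difference -2.70, SE 0.08, adjusted p = 1.35e-09). All JQ1 libraries of these 3 genes were above all SAHA libraries. Egr1 (difference -2.14, SE 0.13, adjusted p = 3.44e-07), Fos (difference -1.38, SE 0.27, adjusted p = 0.00232) and Junb (difference -1.04, SE 0.10, adjusted p = 9.78e-06) were likewise higher with JQ1. The AP-1 subunit Fosl1 was the largest exception, at 38.1, 37.7 and 37.9 TPM with SAHA, 3.37, 1.74 and 4.68 with JQ1 and 31.2 ± 4.47 with DMSO (difference 3.25, SE 0.23, adjusted p = 1.44e-06). The AP-1 site, searched as TGANTCA on both strands, was in 5.07% of the promoters of all genes higher with SAHA, 3.77% of those higher with JQ1 and 4.37% of all. Further, 3 MAP kinase phosphatases apart from Dusp1 were higher with SAHA, Dusp4 (difference 1.75, SE 0.26, adjusted p = 0.000383), Dusp5 (difference 0.95, SE 0.15, adjusted p = 0.000639) and Dusp6 (difference 1.14, SE 0.10, adjusted p = 8.17e-06).

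Lysosome genes were mostly higher with JQ1. Of 43 tested lysosome and autophagy genes, 27 were higher with JQ1 and 5 higher with SAHA (median -0.66), and the medians from DMSO were 0.19 with SAHA and 0.71 with JQ1. The summed level was 3546, 3420 and 3586 TPM with SAHA and 5013, 5031 and 4975 TPM with JQ1, and DMSO libraries gave 3080 to 3091 TPM. Neu1, a lysosomal sialidase, had 5.95, 4.35 and 5.7 TPM with SAHA and 29.2, 32.9 and 25.4 TPM with JQ1 (difference -2.25, SE 0.22, adjusted p = 1.61e-05). Atp6v0d1, a subunit of the vacuolar proton pump, had 12.8, 12.2 and 16.9 TPM with SAHA and 56.8, 61.2 and 54.2 TPM with JQ1 (difference -1.98, SE 0.18, adjusted p = 8.26e-06), and Ctsa, a protective carboxypeptidase, 15.9, 18.2 and 13.4 and 44.99, 41.2 and 47.3 TPM (difference -1.44, SE 0.14, adjusted p = 1.55e-05). No JQ1 library overlapped with a SAHA library in these genes. Tfeb, a master regulator of the lysosome, did not pass the test (difference 0.81, SE 0.52, adjusted p = 0.269), and its relative Mitf was higher with SAHA (difference 0.998, SE 0.22, adjusted p = 0.00494).

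The promoters of 2 lysosome genes, picked because they hold it, are shown for the letters CACGTG, an E-box bound by TFEB relatives and by MYC with MAX. The Lamp1 window holds this sequence at 2 places and the Atp6v0d1 window at 1, in capitals.
Atp6v0d1: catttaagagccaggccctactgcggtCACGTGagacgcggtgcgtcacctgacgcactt
Lamp1: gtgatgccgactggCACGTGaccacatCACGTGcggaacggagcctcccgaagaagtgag
The Atp6v0d1 window is chr8:105566035-105566094 (minus strand) and that of Lamp1, which encodes a membrane protein of the lysosome and was higher with JQ1 (difference -1.36, SE 0.06, adjusted p = 2.17e-08), is chr8:13159119-13159178 (plus strand) (both GRCm38.p6). Over the same 300 bases, searched on both strands, the E-box was in 10.6% of all 8508 promoters, in 10.2% of those of genes higher with SAHA and in 15.5% of those of genes higher with JQ1. Only 76.7% of the lysosome genes matched the promoter table, so the check is void for that list and no share is given. The GC box GGGCGG was in 67.5%, 63.4% and 74.5% in the same order.

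Iron storage and antioxidant genes lay beside the lysosome genes on the JQ1 side in part. Ftl1, the ferritin light chain, which has many pseudogene copies, had 2428, 2453 and 2158 TPM with SAHA, 13240.1, 13823 and 13534 TPM with JQ1 and 2336 ± 42.2 TPM with DMSO (difference -2.53, SE 0.04, adjusted p = 3.75e-11). The heavy chain Fth1 was also higher with JQ1 (difference -0.86, SE 0.04, adjusted p = 8.61e-08), as was Hmox1, which breaks down heme, at 34.5, 41.9 and 30.5 against 12.6, 10.8 and 14.5 TPM (difference -1.42, SE 0.18, adjusted p = 0.000111). Sod1, a superoxide dismutase, stood at 522, 535 and 462 TPM with SAHA and 1322, 1303 and 1204 with JQ1 (difference -1.33, SE 0.07, adjusted p = 8.52e-08). The whole list of 40 glutathione and NRF2 genes had 11 higher with SAHA and 9 higher with JQ1, which turned to 7 and 10 after median-of-ratios scaling, and its median was near 0 (-0.03).

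Stress genes were called in both directions. Of 36 unfolded protein and integrated stress response genes, 10 were higher with SAHA and 8 higher with JQ1 as deposited, and 8 and 12 after median-of-ratios scaling. Ddit3 (CHOP), a transcription factor of the integrated stress response, had 22.9, 27.5 and 29.1 TPM with SAHA, 214, 186 and 165 TPM with JQ1 and 24.4 ± 3.15 TPM with DMSO (difference -2.78, SE 0.15, adjusted p = 1.44e-07). Chac1, a glutathione-degrading target of that response, had 8.71, 7.18 and 7.67 TPM with SAHA and 37.2, 43.9 and 33.5 with JQ1 (difference -2.14, SE 0.30, adjusted p = 0.00021), and Atf4, its central factor, was higher with JQ1 (difference -0.97, SE 0.06, adjusted p = 5.96e-07). Among the members higher with SAHA were Pdia6 (difference 1.03, SE 0.06, adjusted p = 2.85e-07), Sdf2l1 (difference 0.94, SE 0.23, adjusted p = 0.0073) and Hsp90b1 (difference 0.87, SE 0.04, adjusted p = 1.18e-07), which act in protein folding in the endoplasmic reticulum and are named here after their values were seen. Targets of p53 were called 5 times in each direction among 20. Gadd45b, a stress gene of this list, was higher with JQ1 at 48.2, 57.9 and 62.3 against 14.4, 14.9 and 15.2 TPM (difference -1.85, SE 0.17, adjusted p = 8.31e-06), and the exonuclease gene Aen was higher with SAHA at 29.9, 28.3 and 29.3 against 10.04, 10.4 and 7.69 TPM (difference 1.55, SE 0.12, adjusted p = 2.69e-06). In the cell death list, 7 of 28 were higher with SAHA and 3 with JQ1, with Casp8, the initiator of death receptor signalling, at 6.02, 3.6 and 3.86 TPM with SAHA and 0.88, 0.42 and 0.34 with JQ1 (difference 1.82, SE 0.28, adjusted p = 0.000486).

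Replication-dependent histone genes, whose messages mostly end in a stem-loop without a poly(A) tail, were read here only as far as a poly(A) library holds them. Of 48 tested, 8 were higher with SAHA and 13 higher with JQ1, and the 2 sets were far apart. A member that passed the filter only through the group where it was high could be called in that direction alone. Such members were not counted apart. H2ac4 had 27.5, 22.4 and 31.7 TPM with SAHA and 2.96, 0 and 1.67 TPM with JQ1, and H2ac20 was also higher with SAHA (difference 2.61, SE 0.28, adjusted p = 3.14e-05). H2bc4 had 13.5, 7.49 and 1.38 TPM with SAHA and 139, 120.2 and 137 TPM with JQ1 (difference -4.32, SE 0.51, adjusted p = 6.28e-05; -3.58 without the third SAHA library), and H4c9 had 7.42, 8.76 and 10.5 TPM with SAHA and 117, 111 and 115 with JQ1 (difference -3.56, SE 0.23, adjusted p = 5.7e-07). The summed level of the list was 2803, 2763 and 3306 TPM with SAHA and 1187, 1164 and 1212 TPM with JQ1, so the sum was lower with JQ1 although more of its members were called higher there. DMSO libraries gave sums of 3499 to 3722 TPM and VPA libraries 1451 to 1854 TPM. Histone genes are near-identical copies, and reads of one can be counted for another.

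Promoters of 3 histone genes, picked because they hold it, are shown for the sequence TATAAA, which is that of the TATA box, in capitals.
H2ac4: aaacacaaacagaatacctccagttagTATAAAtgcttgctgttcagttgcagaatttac
H2ac20: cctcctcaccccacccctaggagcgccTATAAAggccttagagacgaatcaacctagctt
H4c9: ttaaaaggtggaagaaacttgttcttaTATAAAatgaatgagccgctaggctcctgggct
The capitals begin 41 bases before the annotated start in H2ac4 (chr13:23751020-23751079 (plus strand)), 42 in H2ac20 (chr3:96220890-96220949 (minus strand)) and 137 in H4c9 (chr13:22041467-22041526 (minus strand)), all GRCm38.p6. The match in H4c9 is thus far from the start, and a match is not a site. The letters, searched on both strands, were in 6.58% of all 8508 promoters and in 24 of 43 histone promoters (55.8%). They were in 6 of the 8 histone promoters on the SAHA side and in 3 of the 11 on the JQ1 side that matched the table. The genes were picked for their difference, so this is a description without a test.

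Mitochondrially encoded genes were higher with JQ1 in 12 of 15 tested and higher with SAHA in 0 (median -0.43), and quantile normalization left 7 of these calls. COX2, a subunit of cytochrome c oxidase, had 10084, 9980.0 and 9142 TPM with SAHA and 14753, 14749 and 15790.4 TPM with JQ1 (difference -0.63, SE 0.05, adjusted p = 1.53e-06), and CYTB, of complex III, 4425, 4370.1 and 3956 and 6801, 6709.9 and 7161 TPM (difference -0.70, SE 0.05, adjusted p = 1.47e-06). Nuclear-encoded genes of the respiratory chain were not on that side as deposited. Of 89 tested, 27 were higher with SAHA and 8 higher with JQ1, but the split was 19 to 17 after median-of-ratios scaling and 16 to 24 after quantile normalization, so their direction rests on the scaling. In glycolysis 8 of 21 were higher with SAHA and 3 higher with JQ1, with Ldha, lactate dehydrogenase A, at 179, 176 and 154 TPM with SAHA and 69.1, 65.4 and 85.8 with JQ1 (difference 1.20, SE 0.11, adjusted p = 6.79e-06). In cholesterol synthesis and uptake 2 of 30 were higher with SAHA and 6 higher with JQ1.

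Cytoskeleton genes were higher with SAHA in 17 of 37 actin and contractile genes and higher with JQ1 in 9. Tpm2, a tropomyosin, had 85.6, 85.5 and 85.2 TPM with SAHA, 41.8, 31.8 and 42.04 with JQ1 and 54.3 ± 5.19 with DMSO (difference 1.14, SE 0.11, adjusted p = 1.61e-05). Among 33 tubulin and cilium genes 11 were higher with SAHA and 4 higher with JQ1. Tubb2b, a neuronal tubulin isotype, had 67.7, 73.6 and 69.9 TPM with SAHA, 23.7, 22.4 and 24.1 with JQ1 and 32.8 ± 4.08 with DMSO (difference 1.55, SE 0.11, adjusted p = 1.77e-06). Amotl2, a target and inhibitor of YAP, was on the JQ1 side at 47, 44.9 and 53.4 against 8.27, 7.3 and 6.46 TPM (difference -2.57, SE 0.19, adjusted p = 1.9e-06), while the YAP target Ankrd1 was on the SAHA side at 111, 116 and 99.5 against 44.5, 50.7 and 44.99 TPM (difference 1.20, SE 0.11, adjusted p = 7.61e-06). The YAP and TEAD list as a whole had 6 of 19 higher with SAHA and 4 higher with JQ1, which turned to 6 and 7 after median-of-ratios scaling.

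**Figure D4:**
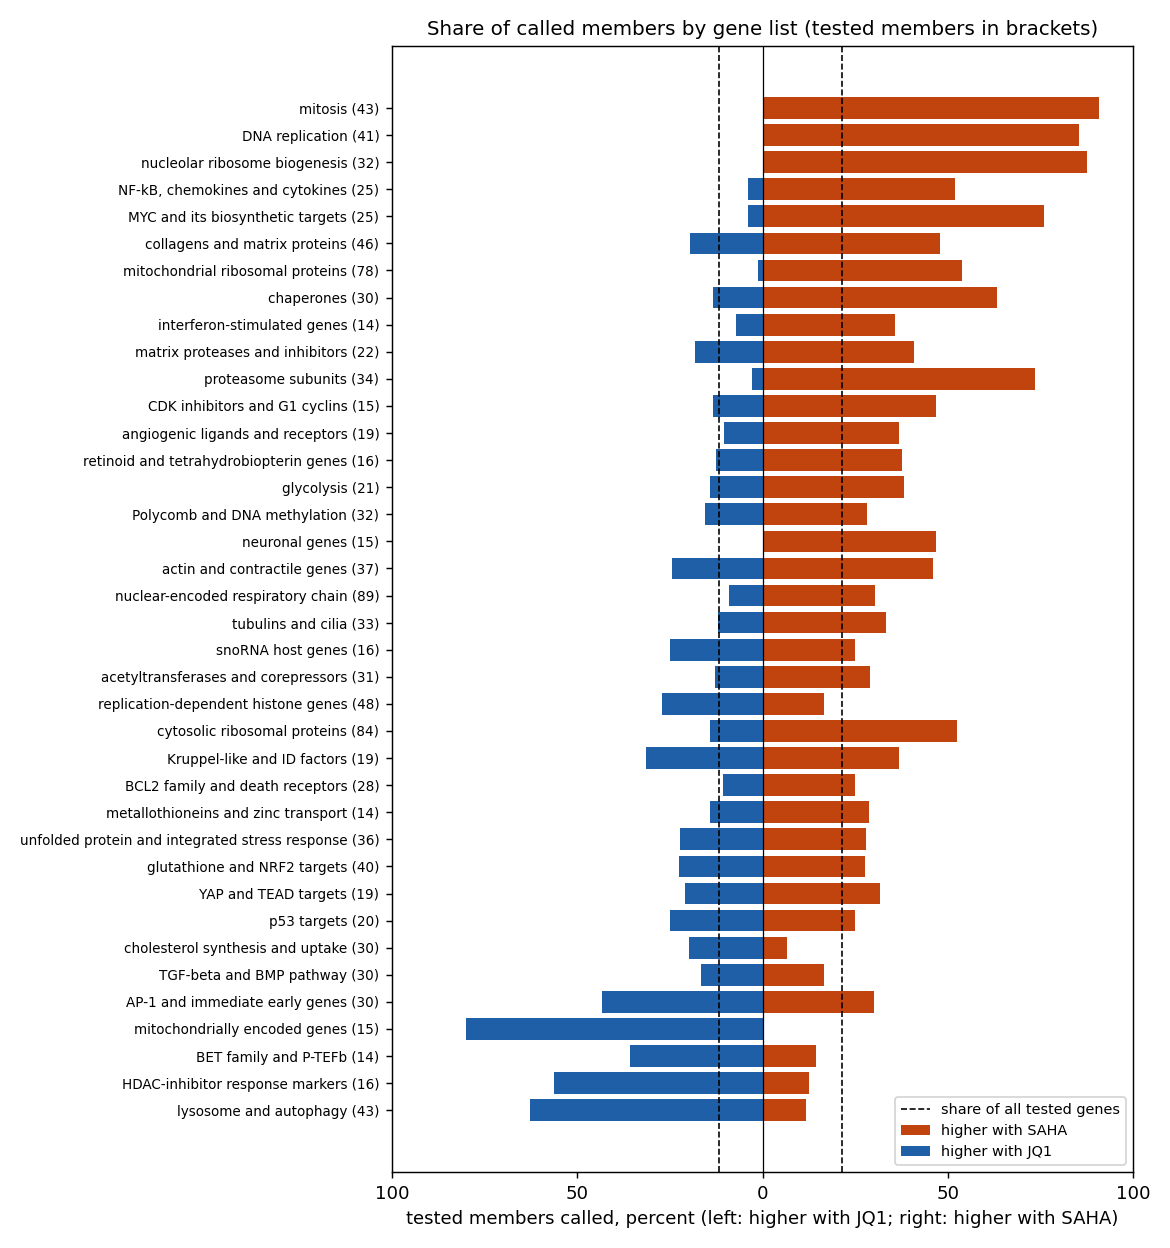
Share of tested members called higher with SAHA (orange, to the right) and higher with JQ1 (blue, to the left) for the gene lists with at least 14 tested members, on a percent axis. Dashed lines mark the shares over all tested genes, 21.3% and 11.9%, and the mitosis, replication and nucleolar lists reach furthest past the first of them.

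Among chromatin regulators, Polycomb and DNA methylation genes were higher with SAHA in 9 of 32 and higher with JQ1 in 5. Uhrf1, which brings the maintenance methyltransferase to newly made DNA, had 16.7, 17.4 and 18.4 TPM with SAHA and 1.92, 4.99 and 2.93 TPM with JQ1 (difference 2.175, SE 0.22, adjusted p = 1.96e-05). Of 31 acetyltransferases, sirtuins and corepressors, 9 were higher with SAHA and 4 higher with JQ1. Hat1, which acetylates new histone H4, had 42.9, 34.1 and 46.4 TPM with SAHA and 16.3, 13.2 and 16.9 with JQ1 (difference 1.35, SE 0.15, adjusted p = 4.95e-05).

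Noncoding RNAs were led by Malat1, an abundant nuclear long noncoding RNA. It had 879, 835 and 853 TPM with SAHA, 7355, 7381 and 7702 TPM with JQ1, 694 ± 32.05 TPM with DMSO and 725 ± 42.2 TPM with VPA, a 8.74-fold ratio of JQ1 over SAHA (difference -3.13, SE 0.05, adjusted p = 2.26e-11). Mir22hg, the host of a microRNA, had 6.24, 5.85 and 5.36 TPM with SAHA and 58.4, 48.1 and 58.4 TPM with JQ1 (difference -3.03, SE 0.14, adjusted p = 3.61e-08). Both genes were higher in each JQ1 library than in any SAHA library. Small nucleolar RNAs, which a poly(A) library holds poorly, were called in 12.6% of 111 cases, 3 higher with SAHA and 11 higher with JQ1. Snora20 was at 9.86, 0 and 14.1 TPM with SAHA and 51.1, 69.4 and 58.8 with JQ1, and Snord83b at 0, 0 and 39.2 and 142, 116 and 65.4 TPM, which lost its call in 11 of 23 alternatives (adjusted p up to 0.132).

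Some features were listed at 0 in every library of one group. Where the other group averaged 5 TPM or more, 43 features were at 0 with JQ1, of which 11 were protein-coding and 12 small nucleolar RNAs, and 35 were at 0 with SAHA, of which 2 were protein-coding and 8 small nucleolar RNAs. Kcnn4, a calcium-activated potassium channel, had 5.62, 5.59 and 5.13 TPM with SAHA and 0 with JQ1, and Ptpn22, a phosphatase of lymphocyte signalling, had 8.92, 8.55 and 11.9 TPM with SAHA and 0 with JQ1. H3c14 was the reverse, at 0 with SAHA and 3.31, 13.4 and 10.5 TPM with JQ1. The lowest point in the plot of differences by level is Gm29216, an unprocessed pseudogene in GENCODE M21, at 7.16, 0 and 0 TPM with SAHA and 993, 1040.2 and 1312 TPM with JQ1. The naming rule leaves pseudogenes out, because their reads can belong to other copies. Without read depth a 0 cannot be turned into a limit, and no fold is given for these.

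**Figure D5:**
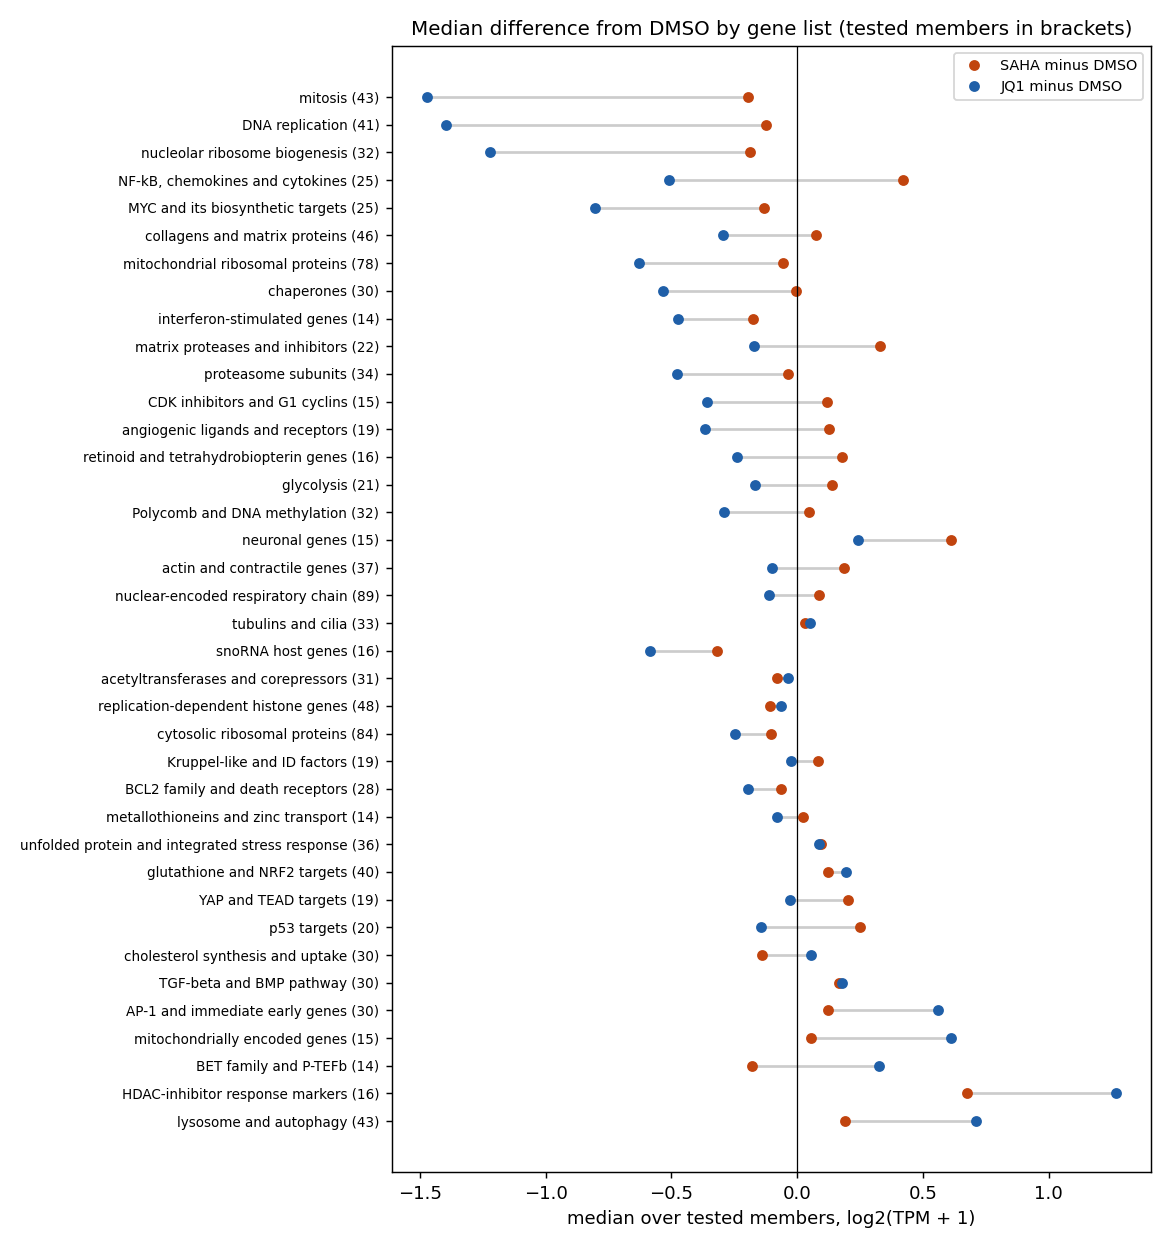
Median difference from DMSO over the tested members of each list (horizontal axis, log2(TPM + 1)), orange for SAHA and blue for JQ1, joined by a grey line. The DMSO libraries are common to both points. For mitosis the orange point is at -0.20 and the blue point at -1.47, and for lysosome and autophagy they are at 0.19 and 0.71.

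Set side by side, several lists lay nearer to DMSO with SAHA than with JQ1. The nucleolar genes lay at a median of -0.19 with SAHA and -1.22 with JQ1, the proteasome at -0.03 and -0.48, and the mitochondrial ribosomal proteins at -0.06 and -0.63. The 5 tested fibroblast markers, of which Dcn passed the filter only through SAHA and VPA libraries, were the other way round, at 1.68 with SAHA and -0.12 with JQ1. Chemokine and NF-kB genes lay on opposite sides of DMSO, at 0.42 with SAHA and -0.51 with JQ1. HDAC-inhibitor response genes lay above DMSO with both drugs, at 0.67 with SAHA and 1.27 with JQ1. At 36 h for both agents, VPA minus JQ1, which uses the same JQ1 libraries, had medians over these 6 lists of 0.95, 0.50, 0.63, 1.48, 0.94 and -0.93 in the order given.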

How the data were processed

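Libraries were made with a QuantSeq 3′ FWD kit, per the labels' protocols. The values are TPM as deposited by the authors. The tools bcl2fastq 2.17, STAR, RSEM and edgeR and the build mm39 stand in the submitters' processing notes, with no role stated. TPM is scaled by gene length, which suits 3′ tags poorly, so levels are not compared between genes, and read depth is unknown. All 12 columns were used.

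A gene was kept if it reached 1 TPM in 3 or more libraries, and log2(TPM + 1) was fitted as 4 group means, which left 8 residual degrees of freedom (limma 3.58.1 in R 4.3.3, intensity trend, no robust shrinkage). Tests were two-sided and adjusted by Benjamini and Hochberg over all 12836 genes. SE is the moderated standard error. Of the genes, 10928 were named in the matrix, 1842 from GENCODE M21 and 66 stayed as identifiers. The 48 gene lists and the groups compared were chosen with earlier results of these data known, and lists are described by counts and medians, without a test.

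Genes were named by a rule: the 15 higher and 15 lower called genes with the largest difference, a mean of 5 TPM or more in SAHA or JQ1, no overlap and a symbol that is not predicted, clone-based or a pseudogene, up to 4 called members of each list, and a fixed set such as Myc and Hexim1. Not all are printed. Chosen after their values were known, and outside the rule, were Atf4, Cdkn1b, Cdkn2b, Col1a1, Col4a1, Dusp4, Dusp5, Dusp6, Egr1, Fos, Fth1, Gm29216, H2ac20, Hsp90b1, Igfbp7, Il33, Junb, Kcnn4, Lamb2, Lamp1, Mitf, Nfkb1, Nfkbia, Pdia6, Ptpn22, Rela, Sdf2l1, Tfeb and Tnc. Promoters came from a RefSeq table on GRCm38.p6. The method was tested on simulated data. Figures used Python 3.11.15 and matplotlib 3.10.9. The values of a few list members are not reported here, although the list counts include them.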

Additional observations from a re-analysis of the deposited data

How the results depend on the processing

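Across 23 alternatives the counts of genes higher with SAHA and with JQ1 stayed within 1.5 times of 2737 and 1533. Leaving out each library of any group in turn gave 2409 to 2711 genes higher with SAHA and 1236 to 1516 higher with JQ1. The widest changes were those of median-of-ratios scaling (2274 and 2015) and quantile normalization (2214 and 2059), which moved the balance given with the main counts. A fit with the replicate number as a replicate block gave 2627 and 1452. Deviations of same-numbered libraries had correlations of -0.0449 to 0.0789 over all pairs of groups, so the labels' numbers are not taken to pair the samples. Of 4270 called genes, 2811 kept call and direction in every alternative in which they were tested, 3007 in every fit that left out a library, and 22 changed sign in at least 1 alternative, 0 of them among the 1951 genes that differed at least 2-fold. Among 179 called genes that the naming rule took, 157 kept their call throughout. The 1 that reversed was ND4, with a difference of 0.0126 under quantile normalization (adjusted p = 0.916), and the cause was not tested. List counts were recomputed 2208 times, and 2064 stayed within 1.5 times of the count reported, 115 were lower and 29 higher. The 3 libraries a group and the unknown read depth limit what low genes can show, and TPM keeps only relative abundance.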

Other observations

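A few gene groups belong to no list described above. Host genes of small nucleolar RNAs were called 4 times in each direction among 16, and 4 against 5 after median-of-ratios scaling. Snhg15, of this list, had 36.6, 52.1 and 50.9 TPM with SAHA and 23.2, 18.5 and 18.5 TPM with JQ1 (difference 1.17, SE 0.18, adjusted p = 0.000428), and Snhg18 had 55.6, 59.1 and 57.3 and 29.2, 37.6 and 31.8 TPM (difference 0.79, SE 0.10, adjusted p = 0.000128). Of 14 metallothionein and zinc transport genes tested, 4 were higher with SAHA and 2, Mt1 and Mt2, higher with JQ1, and the split was 3 to 3 after median-of-ratios scaling and after quantile normalization. Slc39a10, a zinc importer, was at 12.8, 12.2 and 11.8 TPM with SAHA and 4.29, 6.33 and 3.22 with JQ1 (difference 1.28, SE 0.23, adjusted p = 0.00147). Mt3, a metallothionein of brain, was at 1.3, 4.56 and 1.62 TPM with SAHA and listed at 0 in every JQ1 and DMSO library. Mt3 passed the filter only through the SAHA libraries, so it could be called in that direction alone. Every difference is SAHA minus JQ1 on the log2(TPM + 1) scale, with the limma adjusted p.

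Further single genes with large differences were Rcan2, a regulator of calcineurin, with 31.2, 36.1 and 28.2 TPM with SAHA and 2.38, 0.23 and 2.86 with JQ1 (difference 3.70, SE 0.38, adjusted p = 2.14e-05), and Styk1, a kinase-like membrane protein, with 31.1, 32.5 and 49.9 and 1.56, 0.22 and 4.16 TPM (difference 3.91, SE 0.52, adjusted p = 0.000159). Tead2, a DNA-binding partner of YAP, had 30.2, 20.5 and 22.8 TPM with SAHA and 5.52, 7.87 and 7.32 with JQ1 (difference 1.69, SE 0.18, adjusted p = 3.18e-05). The class I antigen-presenting genes H2-D1 and H2-K1 lay above DMSO with both drugs, at 36.98, 39.6 and 33.9 TPM with SAHA, 51.3, 57.5 and 55.9 with JQ1 and 12.7 ± 3.4 with DMSO for H2-D1 and at 110.0, 117 and 114, 159, 164 and 150.3 and 52.97 ± 12.7 TPM for H2-K1. Between the drugs H2-D1 lost its call in 2 of 23 alternatives (adjusted p up to 0.0568) and H2-K1 in 9 (adjusted p up to 0.105), and class I genes are similar enough to share reads.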
